A study of Mus musculus with 12 samples.

Results

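The transcripts described here encode molecular chaperones and their partners: the heat shock proteins with Hsp names, the J-domain co-chaperones with Dnaj names and the subunits of the cytosolic chaperonin with Cct names. Members were the protein-coding genes with those names among the genes that the authors listed in their result table for YTHDF1. The name pattern matched 70 genes, and 1 of them, Hspbap1, was dropped because it is named only for an association with a heat shock protein. That left 69 members of the 55573 genes in the count table. They comprised 10 HSP70 genes, 3 HSP110 genes, 3 HSP90 genes, 2 small heat shock protein genes, the 2 genes of the mitochondrial chaperonin, 7 CCT subunits, 4 DNAJA, 10 DNAJB and 25 DNAJC genes, and 3 further genes with Hsp names. The members were chosen by name among the listed genes, whose lowest mean normalized count was 10.01, and the rule used no fold change or p-value. After the filter on low counts 68 members were tested, and the exception was Dnajb3, whose level lay between 0.299 and 1.18 CPM (counts scaled to a common library size) in the 12 libraries.

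RIP-seq, the sequencing of RNA that precipitates with a protein, was performed on primary hippocampal neurons of neonatal C57BL/6 mice after 14 days in culture. Lysates were incubated with antibodies against the endogenous proteins YTHDF1, YTHDF2 or YTHDF3, and a part of the lysate was kept for total RNA as Input. Each of the 4 groups had 3 libraries, the groups differed in the antibody, and hippocampi of all pups in a litter were pooled. No genetic change is labelled for any group. Per the study's methods the replicates were biological, each began as 1 pooled lysate that was divided among the 3 RIPs and their Input, and the 3 comparisons with Input share the same Input libraries. The labels do not state that libraries with the same replicate number share a lysate. Whether replicates came from separate litters is not given in the sources used here, so p-values measure the spread between these libraries. A control antibody was not analysed here. Enrichment means a higher level in the RIP than in Input after the libraries were scaled to each other, which is not the same as a larger share of the counts.

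Chaperones bind unfolded or partly folded proteins and keep them from aggregating. HSP70 proteins do so in cycles of ATP hydrolysis, in which J-domain proteins deliver the client and trigger hydrolysis, and nucleotide exchange factors such as the HSP110 proteins reset the cycle. HSP90 proteins act later on kinases, receptors and other near-native clients, and the chaperonins enclose their clients in a ring-shaped chamber. Each compartment has its own set, and neurons depend on several of them at the synapse, where J-domain proteins help to maintain vesicle proteins and to remove clathrin coats. YTHDF proteins are cytoplasmic readers of N6-methyladenosine (m6A), a modification of mRNA that lies within a short consensus sequence and often near the stop codon. GGACT is a frequently methylated form of that consensus.

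The GGACT nearest to the stop codon is shown for the members that were enriched in all 3 RIPs, to set these transcripts beside the depleted ones that follow. The sequences are transcript-strand windows of 25 bases from mouse build GRCm38, with GGACT in capitals, and T stands for U.
Hspa1a, chr17:34969932-34969956, minus strand, 3′ UTR: gtggccttgaGGACTgtcattattt
Hspa1b, chr17:34957251-34957275, minus strand, coding sequence: tctcctggctGGACTccaacacgct
Hsph1, chr5:149617499-149617523, minus strand, coding sequence overlapping the stop codon: acatggacctGGACTaggctctgtg
Dnajc13, chr9:104200477-104200501, minus strand, coding sequence far from the stop codon: gaattcttgtGGACTtgctaactct
Dnajc16, chr4:141763511-141763535, minus strand, coding sequence overlapping the stop codon: ggcctgagctGGACTgagcgaggcc

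Of the 10 members depleted in all 3 RIPs, 6 held a GGACT within an exon that could be shown in the same way, Hspb6 held it across an exon junction, and the others, Cct4 and Dnajc19 among them, held none.
Dnajc2, chr5:21757772-21757796, minus strand, coding sequence: ggacgaagaaGGACTgcatgaggcg
Dnajc8, chr4:132553171-132553195, plus strand, 3′ UTR: cctgcttcacGGACTcattctctct
Dnajc15, chr14:77826375-77826399, minus strand, 3′ UTR: tgatgctaaaGGACTgtacataccg
Hspb11, chr4:107279802-107279826, plus strand, coding sequence: ttctgcagagGGACTaacagtctca
Hspbp1, chr7:4677739-4677763, minus strand, coding sequence: tgctcgaccgGGACTcctgcgacac
Hspe1, chr1:55088330-55088354, plus strand, 5′ UTR: ccggccagcaGGACTctccttgcag

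The motif was therefore present on both sides. Searched on the transcript strand of the longest coding transcript, GGACT occurred at least once in 62 of the 68 members with such a transcript and in 92.6% of the protein-coding genes tested. Its median density was 0.985 per kb in the members and 1.036 per kb in the protein-coding genes tested. The 19 members that were only ever enriched had a median density of 1.07 per kb, and the 27 that were only ever depleted had 0.976 per kb. Across members, density and log2 fold change had Spearman correlations of -0.122 for YTHDF1, 0.062 for YTHDF2 and -0.129 for YTHDF3 (67 genes, which share the libraries). These windows are descriptions of sequence, and methylation was not measured in these files.

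The libraries held 6020072 to 38909592 counts. All members together took 0.792% ± 0.037 (SD, n = 3) of the Input counts, and 0.926% ± 0.048, 0.804% ± 0.101 and 0.995% ± 0.052 of those from YTHDF1, YTHDF2 and YTHDF3. Of the counts in protein-coding genes alone they took a larger share of Input, 1.253% ± 0.034, than of the RIPs, at 0.997% ± 0.028, 1.110% ± 0.096 and 1.049% ± 0.059 in the same order. Neuronal markers were abundant in every library, with a summed level of 1566 to 6392 CPM over 5 genes. Astrocyte markers were not absent: their sum over 5 genes ran from 252 to 2428 CPM across the Input libraries, 253 to 1131 CPM in the YTHDF1 RIP, 548 to 1241 CPM in the YTHDF2 RIP and 184 to 1437 CPM in the YTHDF3 RIP. Markers of oligodendrocytes and their precursors reached 1327 CPM in YTHDF1 replicate 1, against 50.7 to 333 CPM in Input. Among them, Pdgfra in replicate 1 stood at 0.53 CPM in Input and 0.89 CPM in the YTHDF3 RIP, but at 117 and 155 CPM in the YTHDF1 and YTHDF2 RIPs. In replicates 2 and 3 it lay between 79.6 and 244 CPM in every group. Whether same-numbered libraries came from the same culture was not tested, and the correlations between them are given with the processing. Microglial and endothelial markers summed to no more than 6.22 CPM. In such bulk lysates, fewer cells of a type and less RNA per cell cannot be told apart, and the part of glial RNA in the values below was not tested.

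The members went in both directions in every RIP. A gene was called enriched or depleted at a log2 fold change of at least 0.32 above or below Input and an adjusted p of at most 0.05, from edgeR's quasi-likelihood test with Benjamini-Hochberg adjustment over the 16820 genes tested. In the YTHDF1 RIP 19 of the 68 members were enriched, where 27.5% of all genes were, and 19 were depleted, where 26.1% of all genes were. In the YTHDF2 RIP 6 members were enriched (16.1% of all genes) and 15 depleted (19.3% of all genes). The YTHDF3 RIP had 8 enriched members (16.7% of all genes) and 21 depleted ones (23.2% of all genes). Without Input replicate 2 only 2 members were enriched in the YTHDF3 RIP, and without YTHDF3 replicate 2 only 14 were depleted there. Their median log2 fold change was 0.02 for YTHDF1, -0.17 for YTHDF2 and -0.33 for YTHDF3, against 0.02, 0.02 and 0.05 for all genes tested and 0.12, 0.08 and 0.14 for the protein-coding genes tested. The SD of the 3 replicate medians was 0.17, 0.13 and 0.12 in the same order.

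These counts come from a fit without a term for the replicate. With the replicate number as a block among all 12 libraries, 18 members were enriched and 19 depleted for YTHDF1 (26.9% and 25.8% of all genes), 6 and 15 for YTHDF2 (15.7% and 18.5%), and 8 and 20 for YTHDF3 (16.5% and 22.7%). The calls lost were those of Dnajc14 and Dnajc25 for YTHDF1 (adjusted p 0.0503 and 0.0518) and of Hsph1 and Dnajc12 for YTHDF3 (adjusted p 0.0606 and 0.063, edgeR). The YTHDF1 counts depended on the block when only that RIP and Input were fitted. Without it 14 members were enriched and 18 depleted (20.6% and 24.3% of all genes), and with it 6 were enriched and 11 depleted (14.5% and 18.4% of all genes). The 6 were Hspa1a, Hspa1b, Hspa1l, Hsph1, Dnajc13 and Dnajc16. The depleted members that lost their YTHDF1 call in that blocked fit were Cct4, Dnajb6, Dnajc1, Dnajc3, Dnajc8, Dnajc12, Dnajc17 and Dnajc25 (adjusted p from 0.058 to 0.139), and Dnajb9, Dnajc6, Dnajc7, Dnajc14 and Hspd1 lost it on the enriched side beside the HSP70 and HSP90 genes given with their families (adjusted p from 0.136 to 0.362). The YTHDF2 RIP had 5 enriched and 13 depleted members in the same kind of fit (13.2% and 17.8% of all genes), where Hspa5 and Dnajc30 were not called (adjusted p 0.0913 and 0.114).

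The calls fell unevenly over the families. Of the 19 members enriched in the YTHDF1 RIP 12 were HSP70, HSP90 or HSP110 genes, and of the 19 depleted ones 12 were DNAJC genes. In all 3 RIPs 5 members were enriched (7.35%, against 8.63% of all genes tested): Hspa1a, Hspa1b, Hsph1, Dnajc13 and Dnajc16. Depletion in all 3 RIPs was seen for 10 members (14.7%, against 14.0% of all genes tested), among them Cct4, Dnajc2, Dnajc8, Dnajc15, Dnajc19, Hspb11, Hspb6, Hspbp1 and Hspe1. No RIP gave a call for 21 members (30.9%, against 34.3% of all genes tested). Dnajb9 was the only 1 of the 68 members called in opposite directions, as were 235 of the 16820 genes tested.

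**Figure D1:**
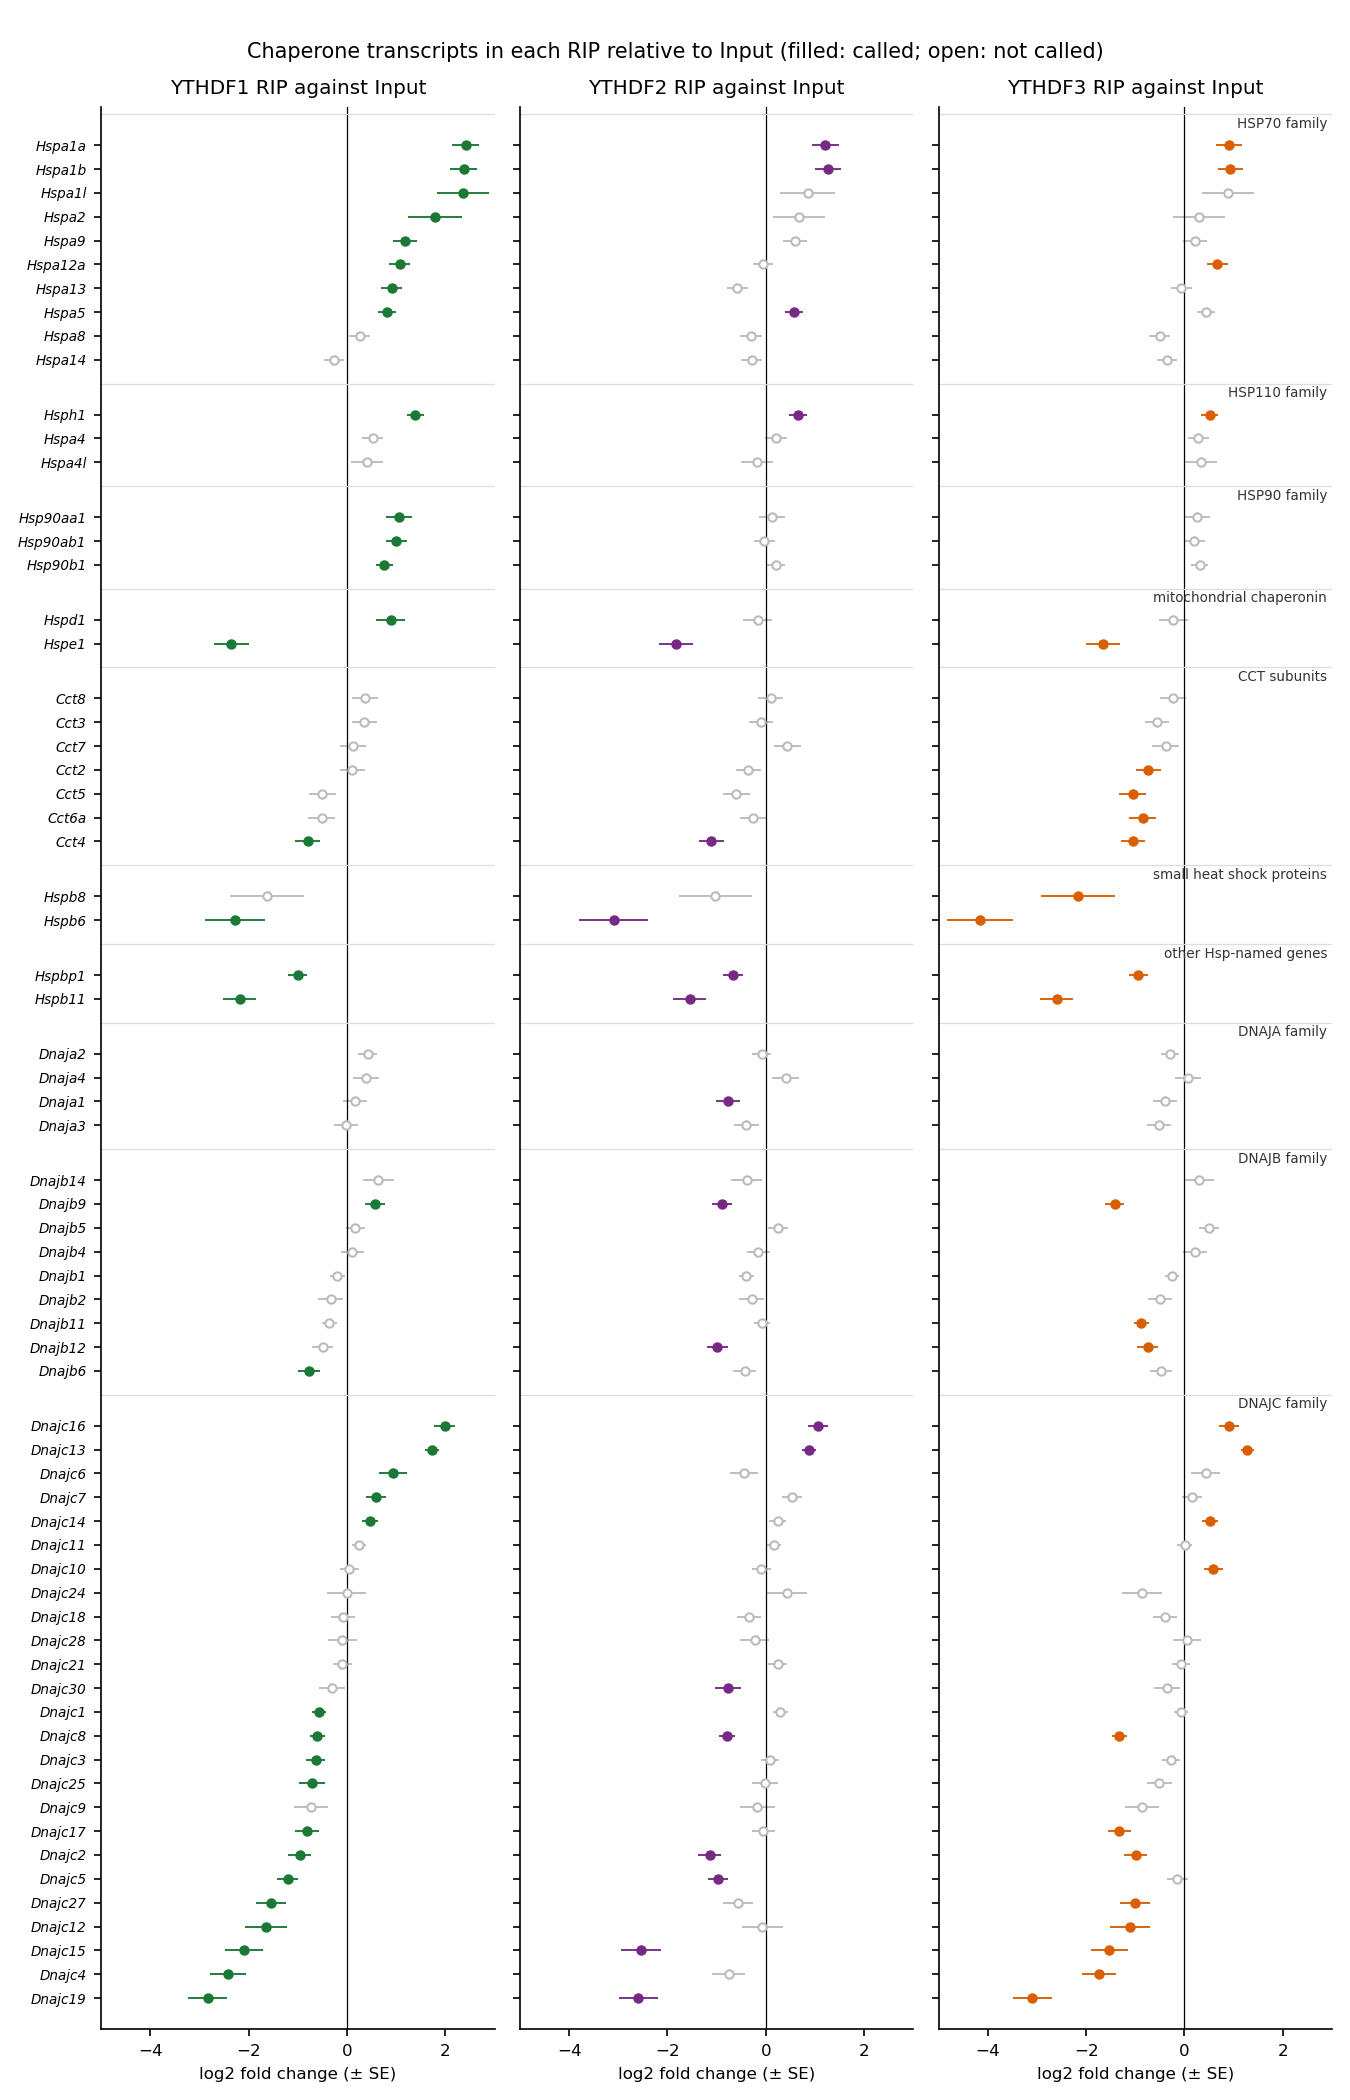
Log2 fold change over Input (horizontal axis, ± SE) of 67 tested chaperone genes, grouped by family, in the YTHDF1, YTHDF2 and YTHDF3 RIPs. Filled points were called and open points were not; in the YTHDF1 RIP 8 of 10 HSP70 genes and 3 of 3 HSP90 genes lie on the right as filled points, and 12 of 25 DNAJC genes lie on the left as filled points.

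The HSP70 family had the highest values of the set in the YTHDF1 RIP. There 8 of its 10 genes were enriched and none was depleted (27.5% and 26.1% of all genes), with a median log2 fold change of 1.12. The YTHDF2 RIP gave 3 enriched genes (Hspa1a, Hspa1b and Hspa5) and the YTHDF3 RIP gave 3 (Hspa1a, Hspa1b and Hspa12a), with medians of 0.59 and 0.36. Of all genes, 16.1% and 16.7% were enriched there. Scaling by library size alone left 7 of the 10 enriched in the YTHDF1 RIP and 1 depleted. With the replicate block among all libraries 8 were enriched there, as in the 2 groups alone without it, but with the block in those 2 groups only Hspa1a, Hspa1b and Hspa1l were called. The other 5, Hspa2, Hspa5, Hspa9, Hspa12a and Hspa13, then had log2 fold changes from 0.70 to 1.53 and adjusted p from 0.0664 to 0.123.

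Hspa1a (ENSMUSG00000091971, chr17:34969190-34972156) and Hspa1b (ENSMUSG00000090877, chr17:34956436-34959238) encode the stress-inducible cytosolic HSP70 and consist of 1 exon each. Hspa1b stood at 26.3, 22.5 and 21.8 CPM in the 3 Input libraries, at 117, 92.0 and 158 CPM in the YTHDF1 RIP, at 59.0, 36.5 and 74.1 CPM in the YTHDF2 RIP, and at 48.4, 47.9 and 38.8 CPM in the YTHDF3 RIP. All 9 RIP libraries lay above all 3 Input libraries, and the YTHDF1 libraries lay above every other library. The log2 fold changes of Hspa1b were 2.38 ± 0.27 (SE), 1.27 ± 0.27 and 0.94 ± 0.26, with adjusted p of 4.57e-05, 0.00394 and 0.0147 in edgeR's test. Hspa1a, at 12.5 to 16.0 CPM in Input, followed it with 2.41 ± 0.28, 1.21 ± 0.27 and 0.90 ± 0.27 (adjusted p 4.4e-05, 0.00525 and 0.0184). These 2 genes are near-identical copies: 60.4% of the 50-base windows of Hspa1a and 62.3% of those of Hspa1b occur elsewhere in the transcriptome, and reads with several alignments were counted for each, so their values are not independent. Without Input replicate 2 neither call held in the YTHDF3 RIP (adjusted p 0.0654 and 0.0534), and that of Hspa1a was also lost without Input replicate 3, YTHDF3 replicate 1 or YTHDF3 replicate 2.

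Hspa1l and Hspa2 are HSP70 genes with their main known roles in testis, and Hspa1l is the neighbour of Hspa1a on the opposite strand. Hspa1l was barely expressed, at 0.838, 0.367 and 0.429 CPM in Input and 3.24, 2.28 and 3.07 CPM in the YTHDF1 RIP, and had a log2 fold change of 2.36 ± 0.52 there (adjusted p 0.00277, edgeR). Of the 50-base windows of Hspa1l, 9.6% are shared with other genes, most often Hspa1a, and reads with several alignments counted for each gene. The part of such reads in the low counts of Hspa1l was not tested. Hspa2 was at 36.0, 46.5 and 24.3 CPM in Input and at 91.1, 67.2 and 211 CPM in the YTHDF1 RIP, a log2 fold change of 1.79 ± 0.54 (adjusted p 0.0158, edgeR). YTHDF1 replicate 3 stood far above its 2 partners for Hspa2, and without it, or without Input replicate 3, the call was lost (adjusted p up to 0.108).

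Hspa5 is the HSP70 of the endoplasmic reticulum, also known as BiP, and a main sensor and effector of the unfolded protein response. Its Input levels were 159, 160 and 156 CPM, its YTHDF1 RIP levels 272, 310 and 251 CPM, its YTHDF2 RIP levels 298, 208 and 203 CPM and its YTHDF3 RIP levels 218, 210 and 214 CPM. All 9 RIP libraries exceeded the Input libraries. The log2 fold changes were 0.81 ± 0.18 in the YTHDF1 RIP (adjusted p 0.00269), 0.58 ± 0.18 in the YTHDF2 RIP (adjusted p 0.0258) and 0.44 ± 0.18 in the YTHDF3 RIP (adjusted p 0.0711, edgeR). The YTHDF2 call was lost when any Input library or YTHDF2 replicate 1 was left out (adjusted p up to 0.122). In the YTHDF3 RIP the fit with replicate pairing, described below with the CCT subunits, called Hspa5 enriched (log2 fold change 0.51 ± 0.09, adjusted p 3.5e-05), and so did the fit of those 2 groups without the pairing (0.51, adjusted p 0.00993, edgeR).

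Hspa9, the HSP70 of the mitochondrial matrix, was at 136 to 218 CPM in Input and 349 to 477 CPM in the YTHDF1 RIP, with a log2 fold change of 1.18 ± 0.25 (adjusted p 0.00211, edgeR). Its values of 0.60 ± 0.25 and 0.21 ± 0.25 in the other RIPs did not pass. Hspa12a, a distant HSP70 relative that is abundant in brain, was enriched in the YTHDF1 RIP (1.07 ± 0.21) and the YTHDF3 RIP (0.67 ± 0.21) but had -0.06 ± 0.21 in the YTHDF2 RIP. The YTHDF3 call for Hspa12a was lost without Input replicate 2 or 3 or YTHDF3 replicate 1 or 2 (adjusted p up to 0.0925). Hspa13, a microsomal member of the family, was enriched in the YTHDF1 RIP only (0.91 ± 0.21, adjusted p 0.00398, edgeR).

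The exceptions in this family were Hspa8 and Hspa14. Hspa8 encodes the constitutive HSP70 of the cytosol, which among other tasks strips clathrin from vesicles, and was the most abundant HSP70 at 350 CPM per kb in Input. Its Input levels were 1522, 1472 and 1523 CPM, its YTHDF1 levels 1262, 2158 and 1964 CPM, its YTHDF2 levels 1300, 1141 and 1238 CPM and its YTHDF3 levels 1211, 942 and 1028 CPM. YTHDF1 libraries fell on both sides of Input, whereas all YTHDF2 and YTHDF3 libraries fell below it. No test against Input passed (log2 fold changes 0.25 ± 0.22, -0.30 ± 0.22 and -0.51 ± 0.22), although Hspa8 was called depleted in the YTHDF3 RIP when those 2 groups were fitted alone, with the pairing (-0.44 ± 0.11, adjusted p 0.000782) or without it (-0.44, adjusted p 0.0418, edgeR). Since 73.2% of the windows of Hspa8 are shared with other genes, most often a processed pseudogene, its level is uncertain. Hspa14, which works at the ribosome, had -0.27 ± 0.20, -0.29 ± 0.21 and -0.36 ± 0.20.

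**Figure D2:**
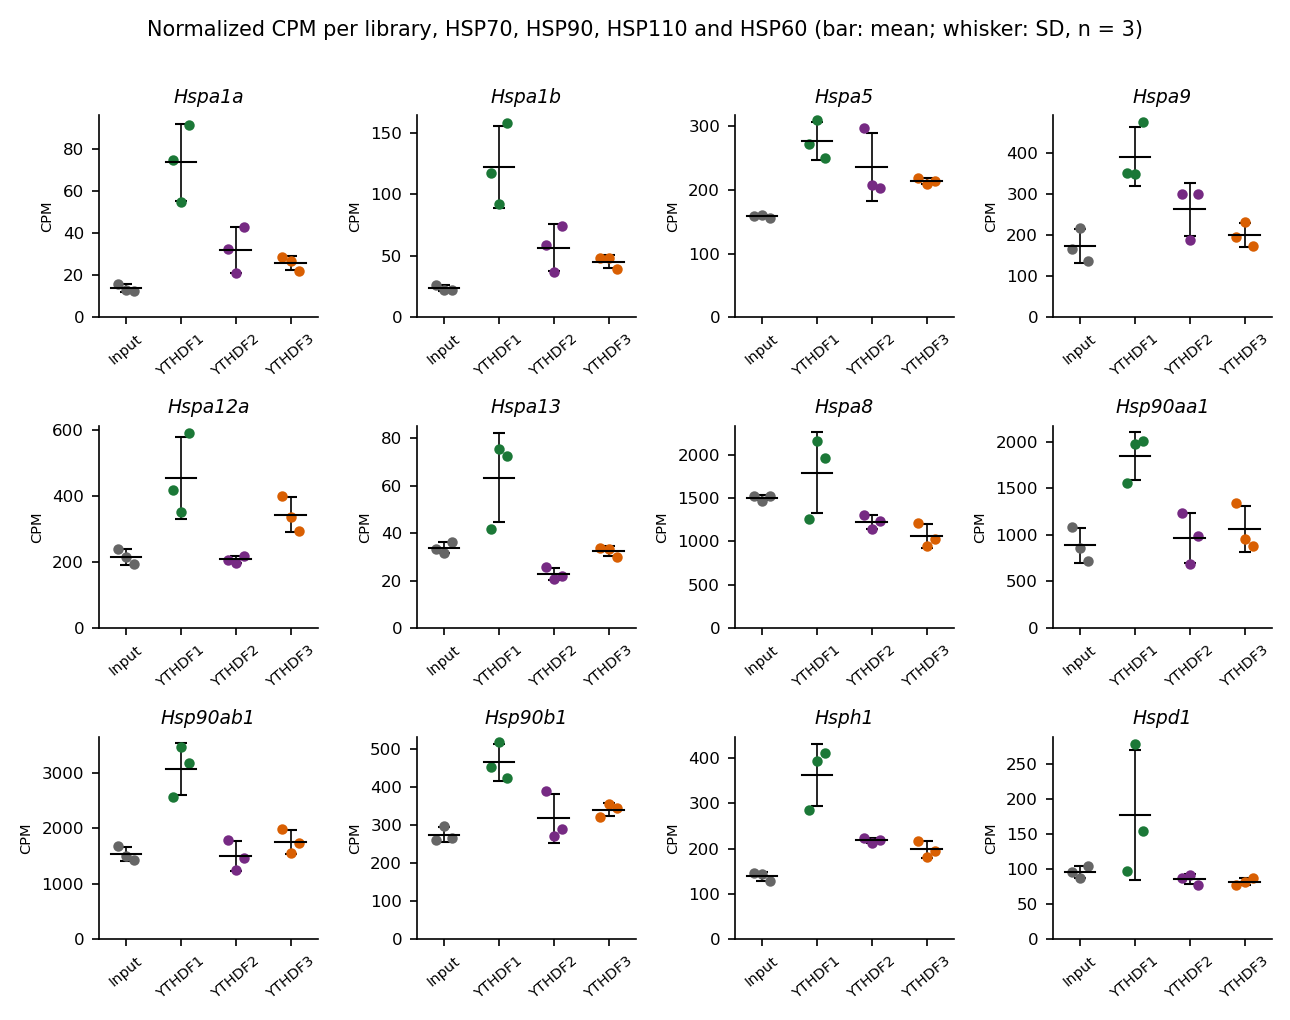
Normalized CPM (vertical axis, from 0) of selected HSP70, HSP110, HSP90 and mitochondrial chaperonin genes in each library, by group, with the mean and SD of 3 libraries. The YTHDF1 libraries of Hspa1a and Hspa1b lie above all others, the YTHDF1 libraries of Hspa8 fall on both sides of Input, and 1 YTHDF1 library of Hspd1 lies far above the rest.

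HSP110 proteins are nucleotide exchange factors for HSP70. Hsph1, also known as HSP105, was at 146, 143 and 128 CPM in Input, 285, 394 and 412 CPM in the YTHDF1 RIP, 224, 212 and 220 CPM in the YTHDF2 RIP and 218, 182 and 194 CPM in the YTHDF3 RIP. Every RIP library exceeded every Input library. Its log2 fold changes were 1.39 ± 0.18, 0.65 ± 0.17 and 0.51 ± 0.17, with adjusted p of 7.77e-05, 0.0131 and 0.0343 in edgeR's test. The YTHDF2 call was lost without Input replicate 3 (adjusted p 0.0528), and the YTHDF3 call was lost when any library of Input or of the YTHDF3 RIP was left out (adjusted p up to 0.107). The other 2 family members, Hspa4 and Hspa4l, did not pass in any RIP. Their log2 fold changes were 0.52 ± 0.22 and 0.41 ± 0.32 for YTHDF1, 0.21 ± 0.22 and -0.18 ± 0.33 for YTHDF2, and 0.28 ± 0.22 and 0.34 ± 0.32 for YTHDF3, where the paired fit called both enriched (0.35 ± 0.10 and 0.42 ± 0.10).

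All 3 HSP90 genes were enriched in the YTHDF1 RIP (27.5% of all genes were) and none was called in the YTHDF2 or YTHDF3 RIP. Their levels in Input were 511 CPM per kb for Hsp90ab1, the constitutive cytosolic form, 226 for Hsp90aa1, the inducible cytosolic form, and 68.0 for Hsp90b1, the form of the endoplasmic reticulum. Hsp90ab1 had 1676, 1501 and 1424 CPM in Input and 2565, 3475 and 3187 CPM in the YTHDF1 RIP. The YTHDF2 libraries, at 1788, 1247 and 1464 CPM, and the YTHDF3 libraries, at 1982, 1548 and 1738 CPM, overlapped Input. Its log2 fold change in the YTHDF1 RIP was 1.00 ± 0.22 (adjusted p 0.00231, edgeR), against -0.03 ± 0.21 and 0.20 ± 0.21 in the others. Hsp90aa1 had 1.06 ± 0.27 (adjusted p 0.00632) and Hsp90b1 0.76 ± 0.18 (adjusted p 0.00409) in the YTHDF1 RIP. The 3 calls held when any library was left out and with the replicate block among all libraries, and 2 of the 3 held with scaling by library size alone. None of the 3 passed with the block in the YTHDF1 and Input groups alone (Hsp90aa1 0.97, adjusted p 0.138, Hsp90ab1 0.89, adjusted p 0.184, and Hsp90b1 0.65, adjusted p 0.169, edgeR), where all 3 passed without it. The paired fit of the YTHDF3 RIP called Hsp90aa1 and Hsp90b1 enriched, at 0.33 ± 0.10 and 0.38 ± 0.10. Of the windows of Hsp90aa1, 58.5% are shared with other genes, most often a transcribed processed pseudogene.

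The mitochondrial chaperonin is built from a barrel of HSP60, encoded by Hspd1, and a lid of HSP10, encoded by Hspe1, whose genes start next to each other on chromosome 1 in opposite directions. Their transcripts differed. Hspe1 was at 27.3, 29.9 and 45.6 CPM in Input, 4.16, 10.2 and 5.59 CPM in the YTHDF1 RIP, 6.91, 13.0 and 8.98 CPM in the YTHDF2 RIP and 11.8, 9.26 and 11.5 CPM in the YTHDF3 RIP. All RIP libraries lay below all Input libraries, and the log2 fold changes were -2.35 ± 0.35, -1.83 ± 0.35 and -1.66 ± 0.34 (adjusted p 0.000217, 0.00221 and 0.00245, edgeR). Hspd1 had 95.2, 87.9 and 105 CPM in Input and 97.7, 280 and 155 CPM in the YTHDF1 RIP. The groups overlapped, with YTHDF1 replicate 2 far above the rest, and the log2 fold change was 0.89 ± 0.30 (adjusted p 0.0253, edgeR). Without YTHDF1 replicate 2 the adjusted p was 0.178, and the call was also lost when any Input library was left out. In the YTHDF2 and YTHDF3 RIPs Hspd1 had -0.17 ± 0.30 and -0.23 ± 0.29. Shared windows make up 44.8% of Hspd1 and 36.1% of Hspe1.

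The CCT complex is the cytosolic chaperonin that folds actin and tubulin, and its subunits are needed in equal numbers. The 7 subunit transcripts were depleted most in the YTHDF3 RIP: Cct2, Cct4, Cct5 and Cct6a were called (23.2% of all genes were), and all 7 values were below 0, with a median log2 fold change of -0.74. With library size alone, 2 were called there and 6 of the 7 values were below 0. The YTHDF2 and YTHDF1 RIPs gave 1 call each, Cct4 (depleted, as were 19.3% and 26.1% of all genes), with a median of -0.26 in the YTHDF2 RIP. In the YTHDF1 RIP the median of 0.10 became negative with library size alone (-0.33), with TMM factors over protein-coding genes (-0.04) and after removal of the length trend (-0.31).

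Cct5, the most abundant subunit per length at 49.7 CPM per kb in Input, was at 132, 130 and 150 CPM in Input, 70.6, 54.4 and 73.6 CPM in the YTHDF3 RIP and 88.4, 104 and 80.6 CPM in the YTHDF2 RIP. All libraries of both RIPs were below Input, but the YTHDF2 difference (-0.60 ± 0.27, adjusted p 0.109) did not pass, while that of the YTHDF3 RIP did (-1.05 ± 0.27, adjusted p 0.00952, edgeR). In the YTHDF1 RIP its levels were 67.2, 148 and 75.3 CPM, and for each of the 7 subunits replicate 2 was the highest YTHDF1 library. The remaining subunit, Tcp1, does not carry a Cct name. Cct4 was at 63.0, 61.0 and 76.2 CPM in Input and between 26.1 and 56.2 CPM in all RIP libraries, with log2 fold changes of -0.80 ± 0.25, -1.11 ± 0.26 and -1.05 ± 0.25 (adjusted p 0.0188, 0.00635 and 0.00655, edgeR). The YTHDF1 call of Cct4 was lost without YTHDF1 replicate 1 (adjusted p 0.0636). In the YTHDF3 RIP, Cct2 had -0.74 ± 0.25 (adjusted p 0.0365) and Cct6a -0.85 ± 0.28 (adjusted p 0.0297), and Cct3, Cct7 and Cct8 had -0.56 ± 0.25, -0.38 ± 0.27 and -0.24 ± 0.26 without a call. Leaving out a library reduced the 4 calls to as few as 2, for example without Input replicate 1. The call of Cct2 was lost when any Input library, YTHDF3 replicate 1 or YTHDF3 replicate 2 was left out (adjusted p up to 0.123), and that of Cct6a without Input replicate 1 or 3 or YTHDF3 replicate 1 or 2 (adjusted p up to 0.109).

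YTHDF3 RIP and Input libraries with the same replicate number deviated together from their group means, and the YTHDF3 comparison was also fitted on these groups alone with the replicate number as a block. This paired fit differs from the fit of 4 groups in 2 choices, the libraries used and the block. It called 18 members enriched, where 36.4% of all genes were, and 31 depleted, where 32.4% of all genes were, in place of 8 and 21. The 2 groups alone without the block gave 10 enriched and 20 depleted members (22.3% and 24.7% of all genes), and among them Hspa5, Hspa8 and Dnajb5 (0.56, adjusted p 0.0268, edgeR) were called there and not in the fit of 4 groups. Among the CCT subunits the paired fit called 5 depleted, adding Cct3 (-0.48 ± 0.10, adjusted p 0.0001). Among HSP70 genes it called 6 enriched, adding Hspa1l, Hspa2 and Hspa5, and 1 depleted, Hspa8. Further members called by the paired fit and not by the fit of 4 groups were Dnajb5, Dnajb14 and Dnajc6 on the enriched side and Dnaja1, Dnaja3, Dnajb2, Dnajb6, Dnajc9, Dnajc18, Dnajc24 and Dnajc25 on the depleted side.

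**Figure D3:**
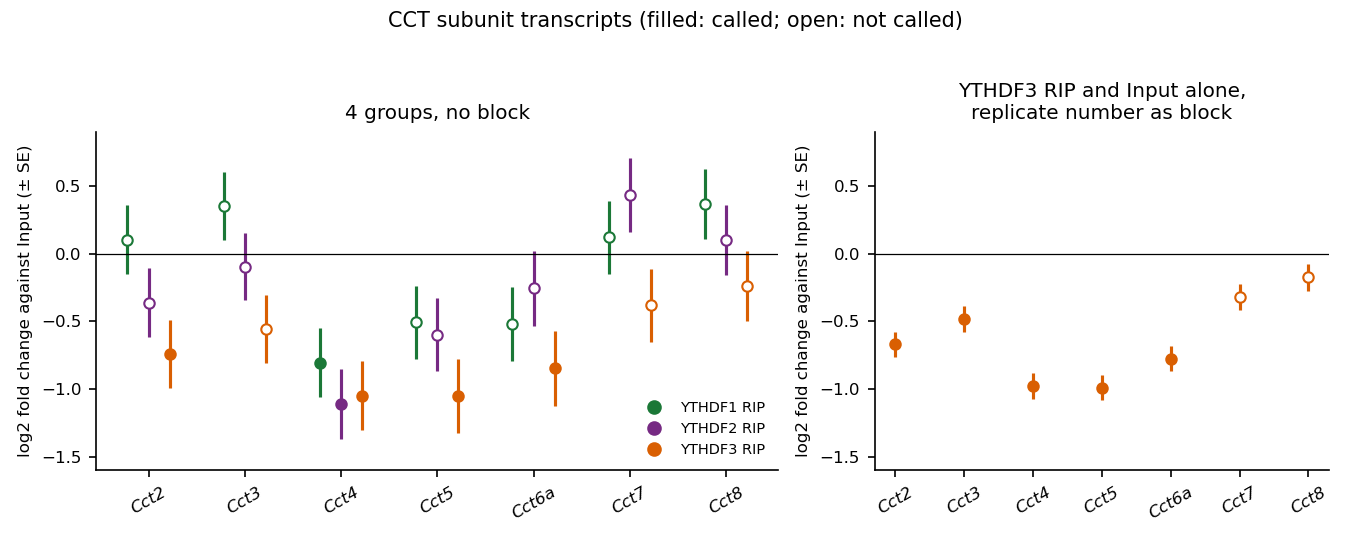
Log2 fold change over Input (vertical axis, ± SE) of the 7 CCT subunits in each RIP in the fit of 4 groups (left), and in the YTHDF3 RIP with the replicate number as a block (right). Filled points were called; in the YTHDF3 RIP 4 of 7 subunits were called without the block and 5 with it, and Cct4 was called in every RIP.

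Small heat shock proteins hold unfolded proteins in a refoldable state without ATP. Hspb6 was low, at 3.58, 3.37 and 6.97 CPM in Input, and fell to 0.289 to 1.92 CPM in the YTHDF1 RIP, 0.224 to 0.897 CPM in the YTHDF2 RIP and 0.185 to 0.298 CPM in the YTHDF3 RIP. Every RIP library lay below every Input library. Its log2 fold changes were -2.28 ± 0.62, -3.10 ± 0.70 and -4.15 ± 0.67 (adjusted p 0.00891, 0.00559 and 0.000565, edgeR). Hspb8, which joins a complex for selective autophagy, stood at 1.83, 10.4 and 16.3 CPM in Input replicates 1, 2 and 3, whose summed astrocyte markers were 252, 1144 and 2428 CPM. Its depletion in the YTHDF3 RIP (-2.16 ± 0.75, adjusted p 0.0392, edgeR) came with overlapping groups and was lost without Input replicate 2 or 3, YTHDF1 replicate 3, YTHDF2 replicate 1 or 2, or YTHDF3 replicate 1 or 2 (adjusted p up to 0.17). The part of astrocyte RNA in these 2 results was not tested.

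Among the 3 further genes, Hspbp1, a nucleotide exchange factor that acts against HSP70, was at 25.8, 23.3 and 28.6 CPM in Input and between 11.5 and 20.8 CPM in the RIPs, with log2 fold changes of -1.004 ± 0.197, -0.67 ± 0.20 and -0.94 ± 0.19. Its YTHDF2 call was lost without Input replicate 1 or 3 or YTHDF2 replicate 1 or 2 (adjusted p up to 0.0839). Hspb11, which despite its name is a subunit of the intraflagellar transport machinery, had -2.18 ± 0.34, -1.54 ± 0.34 and -2.60 ± 0.33.

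The DNAJA and DNAJB families include general partners of cytosolic HSP70 and, as given below, J-domain proteins of the endoplasmic reticulum. Of the 4 DNAJA genes, 1 was depleted with YTHDF2 and none was called with YTHDF1 or YTHDF3. Of the 9 DNAJB genes tested, 1 was enriched and 1 depleted with YTHDF1, 0 and 2 with YTHDF2, and 0 and 3 with YTHDF3. In the same order, 27.5% and 26.1%, 16.1% and 19.3%, and 16.7% and 23.2% of all genes were. Dnajb1, the main stress-inducible J-domain protein, stood at 24.9, 20.4 and 25.0 CPM in Input, 21.5, 20.0 and 19.7 CPM in the YTHDF1 RIP, 18.3, 17.8 and 17.2 CPM in the YTHDF2 RIP and 21.3, 18.4 and 19.1 CPM in the YTHDF3 RIP. These values lay close together, and the log2 fold changes of -0.20 ± 0.15, -0.40 ± 0.15 and -0.26 ± 0.15 did not pass. In a list of heat inducible chaperones, Hspa1a, Hspa1b, Hsph1, Hsp90aa1 and Hspd1 were enriched in the YTHDF1 RIP, and Hspe1 was depleted there. Of the 9 tested genes of the inducible list, 5 were enriched and 1 depleted with YTHDF1 (27.5% and 26.1% of all genes). With YTHDF2 3 and 2 were (16.1% and 19.3%), and with YTHDF3 3 and 1 (16.7% and 23.2%). Dnaja1, a cytosolic partner of HSP70, was depleted in the YTHDF2 RIP (-0.77 ± 0.25, adjusted p 0.0293, edgeR), from 163 to 195 CPM in Input to 100 to 105 CPM, and this call was lost without Input replicate 1 or 2 or any YTHDF2 library (adjusted p up to 0.0861). Dnajb6, which suppresses aggregation of polyglutamine proteins, was depleted in the YTHDF1 RIP (-0.78 ± 0.23, adjusted p 0.0132, edgeR), though not without Input replicate 1 (adjusted p 0.0539). Dnajb2, a J-domain protein enriched in neurons, had -0.33 ± 0.25, -0.28 ± 0.25 and -0.50 ± 0.25 with no call.

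Dnajb9 was the member called in opposite directions. It encodes ERdj4, a J-domain partner of Hspa5 in the endoplasmic reticulum that is induced by the unfolded protein response. Its levels were 19.2, 18.5 and 16.4 CPM in Input, 23.0, 31.4 and 25.8 CPM in the YTHDF1 RIP, 11.6, 8.07 and 9.54 CPM in the YTHDF2 RIP and 7.53, 7.18 and 5.52 CPM in the YTHDF3 RIP. The 4 groups did not overlap. It was enriched in the YTHDF1 RIP (0.57 ± 0.20, adjusted p 0.0285) and depleted in the YTHDF2 RIP (-0.89 ± 0.20, adjusted p 0.00576) and the YTHDF3 RIP (-1.42 ± 0.20, adjusted p 0.000237, edgeR). The enrichment was lost when any Input library, YTHDF1 replicate 2 or YTHDF1 replicate 3 was left out (adjusted p up to 0.162), while both depletions held when each library was left out in turn.

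Of a list of 10 members that act in or at the endoplasmic reticulum, 4 were enriched and 2 depleted with YTHDF1 (27.5% and 26.1% of all genes). The counts were 1 and 2 with YTHDF2 (16.1% and 19.3%), and 1 and 3 with YTHDF3 (16.7% and 23.2%). Dnajc16, described below and also of the reticulum membrane, is not in this list and was enriched in all 3 RIPs. Dnajb11, which like Dnajb9 works with Hspa5, was depleted in the YTHDF3 RIP (-0.88 ± 0.16, adjusted p 0.00126, edgeR), from 33.7 to 35.7 CPM in Input to 17.0 to 20.2 CPM. Dnajb12, a J-domain protein of the reticulum membrane, was depleted in the YTHDF2 RIP (-0.98 ± 0.22, adjusted p 0.00552) and the YTHDF3 RIP (-0.75 ± 0.22, adjusted p 0.0166), the latter not without Input replicate 2 or YTHDF3 replicate 2 or 3. Dnajc3, an inhibitor of the kinase PERK and a co-chaperone of Hspa5, was depleted in the YTHDF1 RIP (-0.64 ± 0.19, adjusted p 0.0125). Dnajc1, another J-domain protein of the reticulum membrane, was depleted there too (-0.57 ± 0.15, adjusted p 0.0066). Dnajc10, a disulfide reductase with a J domain, was enriched in the YTHDF3 RIP (0.59 ± 0.20, adjusted p 0.0337), a call that was lost when any Input or YTHDF3 library was left out (adjusted p up to 0.106).

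The DNAJC family, whose 25 members share little beyond the J domain, held 5 enriched and 12 depleted genes for YTHDF1 (27.5% and 26.1% of all genes). It held 2 and 6 for YTHDF2 (16.1% and 19.3%), and 4 and 8 for YTHDF3 (16.7% and 23.2%). Dnajc13, also known as RME-8, works on endosomes in membrane sorting and had 56.2, 55.4 and 60.1 CPM in Input, 180, 188 and 204 CPM in the YTHDF1 RIP, 107, 95.6 and 111 CPM in the YTHDF2 RIP and 135, 136 and 146 CPM in the YTHDF3 RIP. Its groups were narrow and separate, in the order Input, YTHDF2, YTHDF3 and YTHDF1. The log2 fold changes were 1.73 ± 0.14, 0.87 ± 0.14 and 1.28 ± 0.14 (adjusted p 5.92e-06, 0.000939 and 6.36e-05, edgeR). Dnajc16, a J-domain protein of the endoplasmic reticulum membrane, rose from 27.0 to 31.3 CPM in Input to 82.4 to 145 CPM in the YTHDF1 RIP, 52.0 to 63.6 CPM in the YTHDF2 RIP and 49.2 to 57.4 CPM in the YTHDF3 RIP. Its log2 fold changes were 1.98 ± 0.21, 1.05 ± 0.20 and 0.91 ± 0.20 (adjusted p 2.48e-05, 0.00244 and 0.00398, edgeR). All 6 calls of these 2 genes held when any library was left out.

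The 2 DNAJC genes of the synaptic vesicle cycle moved apart. Dnajc5 encodes cysteine string protein, which protects the release machinery on the vesicle, and Dnajc6 encodes auxilin, the neuronal J-domain protein that recruits Hspa8 to clathrin coats. Dnajc5 was at 212, 164 and 159 CPM in Input, 71.1, 74.8 and 85.8 CPM in the YTHDF1 RIP, 110, 77.3 and 86.1 CPM in the YTHDF2 RIP and 197, 156 and 132 CPM in the YTHDF3 RIP. The YTHDF1 and YTHDF2 libraries lay below Input and the YTHDF3 libraries overlapped it. Its log2 fold changes were -1.21 ± 0.21 in the YTHDF1 RIP (adjusted p 0.000573) and -0.97 ± 0.21 in the YTHDF2 RIP (adjusted p 0.00433, edgeR), both without loss when a library was left out, against -0.14 ± 0.20 in the YTHDF3 RIP. Dnajc6 had 212, 159 and 144 CPM in Input, 274, 278 and 432 CPM in the YTHDF1 RIP, 133, 93.8 and 152 CPM in the YTHDF2 RIP and 308, 219 and 166 CPM in the YTHDF3 RIP. Only the YTHDF1 libraries were separate from Input, with a log2 fold change of 0.93 ± 0.29 (adjusted p 0.0168, edgeR), a call that went when Input replicate 2 or 3 or YTHDF1 replicate 3 was left out (adjusted p up to 0.112). Dnajc7, which links HSP70 and HSP90, was enriched in the YTHDF1 RIP (0.59 ± 0.20, adjusted p 0.0265) but not without Input replicate 2 or 3 or YTHDF1 replicate 2 (adjusted p up to 0.185).

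On the depleted side, the 2 J-domain proteins of the mitochondrial import motor were among the lowest members. Dnajc19 dropped from 11.1, 13.8 and 12.9 CPM in Input to 1.966, 2.703 and 0.757 CPM in the YTHDF1 RIP, with log2 fold changes of -2.83 ± 0.39, -2.59 ± 0.40 and -3.09 ± 0.39 in the 3 RIPs. Dnajc15 had -2.09 ± 0.39, -2.53 ± 0.41 and -1.53 ± 0.38. Across the 8 members that act in mitochondria, 2 were enriched (Hspa9 and Hspd1) and 3 depleted with YTHDF1 (27.5% and 26.1% of all genes). There were 0 and 4 with YTHDF2 (16.1% and 19.3%), and 0 and 3 with YTHDF3 (16.7% and 23.2%). For the enriched side of the YTHDF2 and YTHDF3 RIPs, where 0 mitochondrial members were called in edgeR's test, Hspa9 had the highest log2 fold changes (0.60, unadjusted p 0.0322 and adjusted p 0.0789, and 0.21, adjusted p 0.529).

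Nuclear and ribosomal J-domain proteins gave 3, 2 and 3 depleted genes of 5 in the YTHDF1, YTHDF2 and YTHDF3 RIPs (26.1%, 19.3% and 23.2% of all genes). They gave no enriched gene (27.5%, 16.1% and 16.7% of all genes). Dnajc2, which acts with Hspa14 on nascent chains at the ribosome, had 47.5, 41.9 and 42.5 CPM in Input and 16.4 to 31.0 CPM in the 9 RIP libraries, with log2 fold changes of -0.97 ± 0.23, -1.14 ± 0.23 and -0.99 ± 0.23. Dnajc8, which associates with the spliceosome, had -0.60 ± 0.16, -0.78 ± 0.16 and -1.32 ± 0.16. All 6 of these values were calls that held when each library was left out in turn. Dnajc27, a J-domain protein with a Rab-like GTPase fold, was depleted in the YTHDF1 RIP (-1.55 ± 0.31, adjusted p 0.00151) and the YTHDF3 RIP (-1.01 ± 0.30, adjusted p 0.0207, edgeR), the latter not without Input replicate 1 or YTHDF3 replicate 2 or 3 (adjusted p up to 0.0823). The remaining calls of the family were Dnajc4, Dnajc12, Dnajc17 and Dnajc25 (depleted) and Dnajc14 (enriched) in the YTHDF1 RIP, Dnajc30 (depleted) in the YTHDF2 RIP, and Dnajc4, Dnajc12 and Dnajc17 (depleted) and Dnajc14 (enriched) in the YTHDF3 RIP. The YTHDF1 calls of Dnajc14 and Dnajc25 were lost without Input replicate 1 or 3, YTHDF1 replicate 1 or 3 or YTHDF3 replicate 2, that of Dnajc14 also without Input replicate 2 (adjusted p up to 0.232 and 0.101). The YTHDF2 call of Dnajc30 was lost without Input replicate 1 or 2, YTHDF1 replicate 3, YTHDF2 replicate 1 or 2 or any YTHDF3 library (adjusted p up to 0.152). In the YTHDF3 RIP, Dnajc14 was lost without Input replicate 2 or 3 or YTHDF3 replicate 2 or 3 (adjusted p up to 0.0997), and Dnajc12 when any Input or YTHDF2 library or YTHDF3 replicate 2 or 3 was left out (adjusted p up to 0.181).

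**Figure D4:**
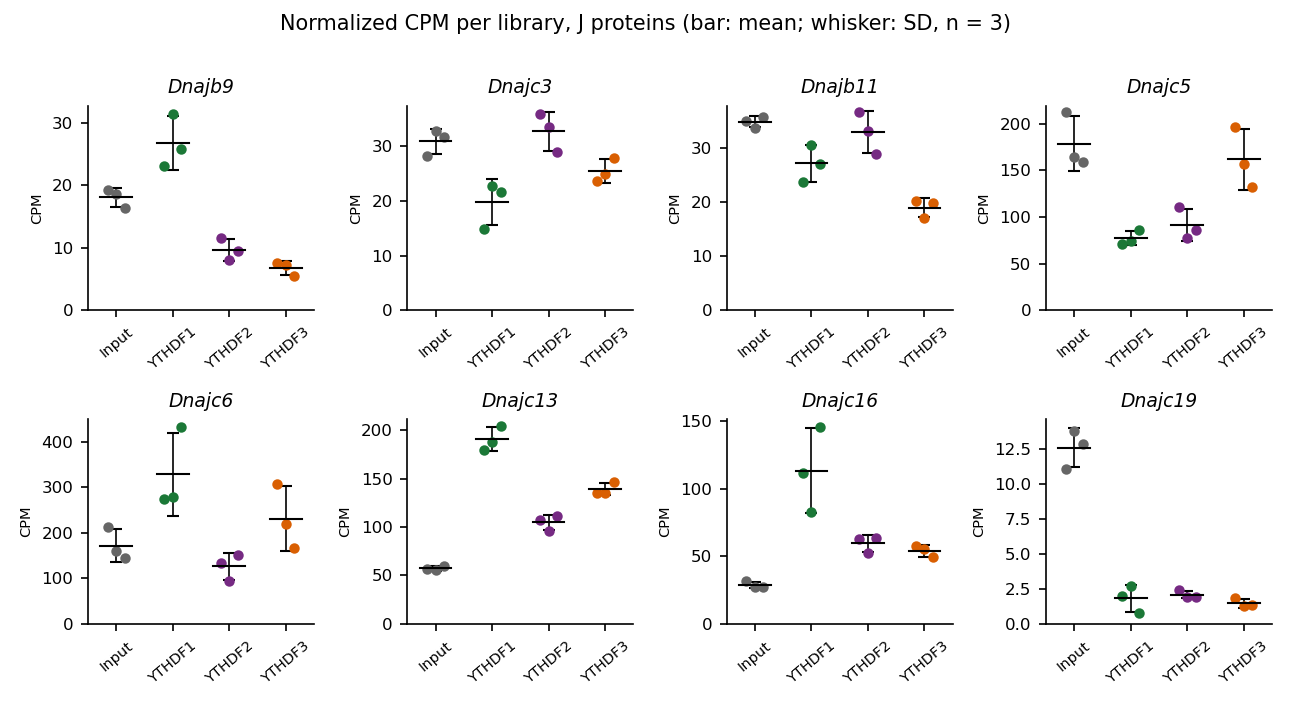
Normalized CPM (vertical axis, from 0) of selected J-domain genes in each library, by group, with the mean and SD of 3 libraries. Dnajb9 is above Input in the YTHDF1 RIP and below it in the others, Dnajc13 is above Input in all 3 RIPs, and Dnajc5 is below Input in the YTHDF1 and YTHDF2 RIPs only.

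The RIPs were then compared with each other, where a call needed a 2-fold difference and an adjusted p of at most 0.05. Between the YTHDF1 and YTHDF2 RIPs 10 members were higher in YTHDF1 (11.4% of all genes were) and 2 were lower (6.13% of all genes). The 10 were Hspa1a, Hspa1b, Hspa1l, Hspa12a, Hspa13, Hsp90ab1, Hspd1, Dnajb9, Dnajb14 and Dnajc6, and the 2 lower genes were Dnajc4 and Dnajc12. Every one of the 10 HSP70 genes had a log2 fold change above 0 in this comparison, and 8 of them kept that sign with scaling by library size alone. Without YTHDF1 replicate 3, 1 HSP70 gene and 4 members in all were called higher, in place of 5 and 10. With library size alone no member was called higher and 9 were called lower (6.32% and 16.4% of all genes), while the median of all genes moved to -0.44 and that of the HSP70 genes stood at 0.66. The call of Hspa1l was lost when any library but Input replicate 1, YTHDF1 replicate 2 or YTHDF2 replicate 3 was left out (adjusted p up to 0.157). The call of Hspd1 was lost without Input replicate 3, YTHDF1 replicate 2 or a YTHDF2 library (adjusted p up to 0.0718), that of Dnajb14 without Input replicate 3, YTHDF1 replicate 3 or any YTHDF2 library (adjusted p up to 0.201), and that of Dnajc12 without YTHDF1 replicate 1 or YTHDF2 replicate 1 or 3 (adjusted p up to 0.0705). Hsp90ab1 fell below 2-fold or lost its call without Input replicate 3, YTHDF1 replicate 2 or 3 or YTHDF2 replicate 2.

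The largest of these differences among well-counted members were Hspa13 (1.48 ± 0.22, adjusted p 0.0005), Dnajb9 (1.46 ± 0.20, adjusted p 0.000361) and Dnajc6 (1.38 ± 0.29, adjusted p 0.00461, edgeR). Hspa13 was at 41.9, 75.7 and 72.7 CPM in the YTHDF1 RIP and 25.7, 20.6 and 21.9 CPM in the YTHDF2 RIP, on either side of its Input levels of 31.8 to 36.4 CPM. The calls of Hspa13, Dnajb9 and Dnajc6 held when each library was left out in turn. Hspa1a differed by 1.20 ± 0.27 (adjusted p 0.00605), but neither it nor Hspa1b was called without YTHDF1 replicate 3 or YTHDF2 replicate 2, and its log2 fold change went down to 0.95. Hspa12a was not called without YTHDF1 replicate 3 (0.82).

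Between the YTHDF1 and YTHDF3 RIPs 6 members were higher in YTHDF1 (11.0% of all genes) and 1 was lower (3.62% of all genes). Higher were Dnajb9 (1.99 ± 0.20, adjusted p 9.71e-05), Hspa1a (1.51 ± 0.27, adjusted p 0.00229), Hspa1b (1.44 ± 0.26, adjusted p 0.0029), Hspa1l, Hspd1 and Dnajc16. The lower gene was Dnajc5 (-1.06 ± 0.21, adjusted p 0.00403, edgeR), whose YTHDF1 libraries at 71.1 to 85.8 CPM lay below its YTHDF3 libraries at 132 to 197 CPM. Without YTHDF3 replicate 1 Dnajc5 differed by less than 2-fold (-0.90), as did Dnajc16 without Input replicate 3 or YTHDF1 replicate 3. The call of Hspa1l was lost when Input replicate 2 or 3 or any YTHDF1 or YTHDF3 library was left out (adjusted p up to 0.153), and without Input replicate 3 the members called higher numbered 3. The call of Hspd1 (1.11 ± 0.30, adjusted p 0.0206) was lost when any YTHDF3 library, YTHDF1 replicate 2 or Input replicate 3 was left out (adjusted p up to 0.0919). Library size alone left 1 member higher and 12 lower (4.53% and 20.2% of all genes), and moved the median of all genes from 0.19 to -0.54.

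Between the YTHDF2 and YTHDF3 RIPs 1 member was higher in YTHDF2 (3.97% of all genes) and 0 were lower (1.17% of all genes). For the lower side, 7 members had an unadjusted p under 0.05 in edgeR's test and DESeq2 called 0. The 1 higher gene was Dnajc17, a nuclear J-domain protein, at 5.58, 8.82 and 6.28 CPM in the YTHDF2 RIP and 2.91, 2.85 and 2.78 CPM in the YTHDF3 RIP (1.27 ± 0.24, adjusted p 0.0121, edgeR). It was lost without YTHDF2 replicate 2 or YTHDF3 replicate 2 (adjusted p up to 0.0673).

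The replicate block moved these pairs less among all 12 libraries than in 2 groups alone. Among all libraries 8 members were higher and 2 lower in YTHDF1 than in YTHDF2 (10.9% and 6.22% of all genes), 6 and 1 for YTHDF1 against YTHDF3 (9.46% and 3.56%), and 1 and 0 for YTHDF2 against YTHDF3 (3.04% and 0.939%), and the calls lost were those of Dnajb14 and Hspd1 between YTHDF1 and YTHDF2. In 2 groups with the block, 7 were higher and 3 lower for YTHDF1 against YTHDF2 (10.9% and 8.09% of all genes). Only Dnajb9 was higher and none was lower for YTHDF1 against YTHDF3 (1.99% and 0.599% of all genes), where Hspa1a and Hspa1b had 1.28 and 1.21 (adjusted p 0.0816 and 0.105) and Dnajc5 -1.25 (adjusted p 0.0809, edgeR). Dnajc17 was not called between YTHDF2 and YTHDF3 (1.13, adjusted p 0.0952), where 1.74% of all genes were higher.

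The exonic length of the gene, over all its annotated exons, ran with enrichment in these libraries. It can exceed the length of the longest coding transcript, as for Cct3 with 6370 against 1977 bases. Over the 13403 protein-coding genes tested, exonic length and log2 fold change had Spearman correlations of 0.492 for YTHDF1, 0.363 for YTHDF2 and 0.537 for YTHDF3, and over the 68 members they were 0.287, 0.237 and 0.492. The members are somewhat short, with a median exonic length of 4057 bases against 4645 for protein-coding genes tested. Members that were only ever enriched had a median of 4310 bases, and those only ever depleted had 3369. The short HSP70 genes went against the trend. Protein-coding genes of 2 to 3 kb had median log2 fold changes of -0.47, -0.27 and -0.43 in the 3 RIPs, whereas the members of that length had 0.50, -0.17 and -0.52, and Hspa1a and Hspa1b, at 2967 and 2803 bases, were the highest members in the YTHDF1 RIP. In the class under 2 kb the 8 members, at -1.32, -0.76 and -1.32, lay near the class medians of -1.13, -0.77 and -1.26.

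Removing the length trend gave 15 enriched members for YTHDF1 (22.4% of all genes), 5 for YTHDF2 (13.2%) and 4 for YTHDF3 (15.5%). The depleted members then numbered 19 (24.8% of all genes), 14 (16.6%) and 18 (16.9%). Of the original calls, 14 of 19 enriched and 16 of 19 depleted were kept in the YTHDF1 RIP, 4 of 6 and 12 of 15 in the YTHDF2 RIP, and 4 of 8 and 13 of 21 in the YTHDF3 RIP. Among the genes named above, Hspa12a, Hspa13, Dnajc6, Dnajc7, Dnajc8, Dnajc14 and Dnajc17 were no longer called in the YTHDF1 RIP, Hspa5, Hsph1, Hspbp1 and Dnajc30 in the YTHDF2 RIP, and Cct2, Cct6a, Dnajb12, Dnajc4, Dnajc10, Dnajc14, Dnajc17, Hspa12a, Hspb8, Hspbp1 and Hsph1 in the YTHDF3 RIP. Hspa1a, Hspa1b, Dnajc13, Dnajc16 and all 3 HSP90 genes kept every call they had against Input.

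**Figure D5:**
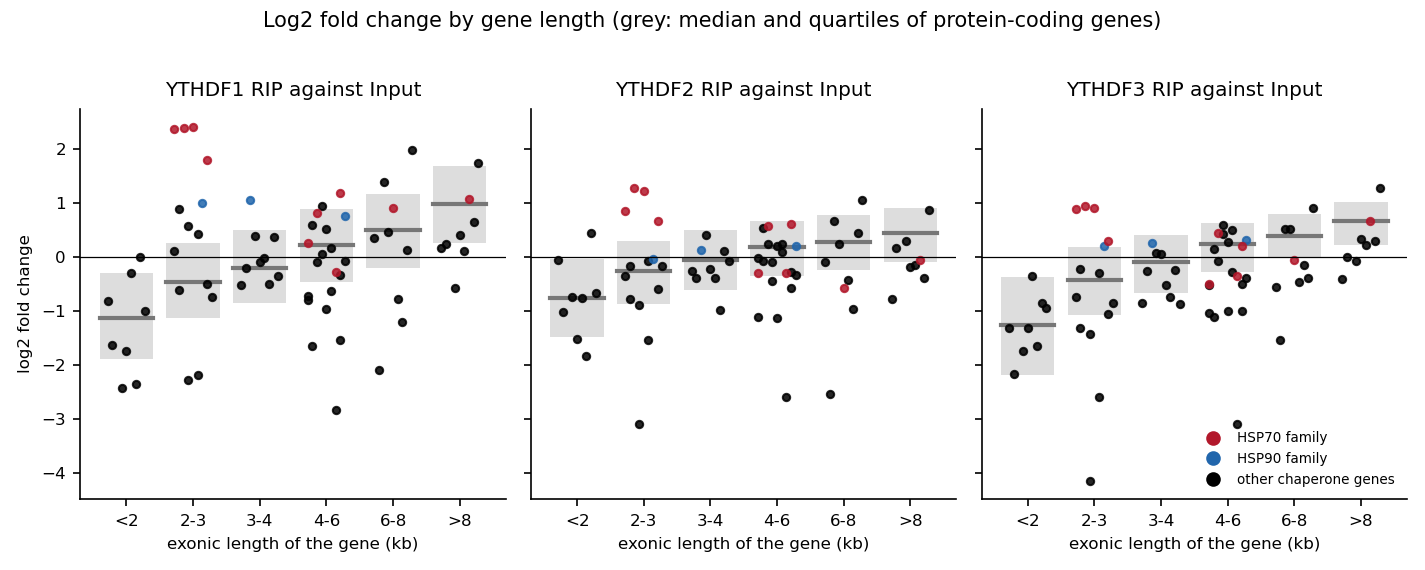
Log2 fold change over Input (vertical axis) by exonic length of the gene in kb (horizontal axis), with the median and quartiles of protein-coding genes in grey and the chaperone genes as points (HSP70 red, HSP90 blue, others black), for each RIP. The grey medians climb with length, from -1.13 under 2 kb to 0.98 over 8 kb in the YTHDF1 RIP, and Hspa1a and Hspa1b lie far above the grey range of their length class there.

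Other genes of the chaperone network were taken from a list of 44 co-chaperones, prefoldin subunits, folding enzymes and heat shock factors. In the YTHDF1, YTHDF2 and YTHDF3 RIPs, 9, 6 and 3 were enriched (20.5%, 13.6% and 6.82%, against 27.5%, 16.1% and 16.7% of all genes). Depleted in the same order were 12, 14 and 18 (27.3%, 31.8% and 40.9%, against 26.1%, 19.3% and 23.2% of all genes). In all 3 RIPs 3 of the 44 network genes were enriched (8.63% of all genes tested were), Hyou1 and Unc45a among them. Hyou1, the HSP110-like exchange factor of the endoplasmic reticulum, had 0.88 ± 0.15, 0.53 ± 0.15 and 0.44 ± 0.15. Unc45a, an HSP90 co-chaperone for myosin, had 0.85 ± 0.14, 0.55 ± 0.14 and 0.53 ± 0.14. Depletion in all 3 RIPs was seen for 12 of the 44 network genes (14% of all genes tested), among them 4 Pfdn genes, which encode prefoldin subunits. The lowest means over the RIPs were those of Bag1, an exchange factor of HSP70 (-3.13 ± 0.46, -2.69 ± 0.46 and -3.09 ± 0.46), Cryab, a small heat shock protein (-2.29 ± 0.58, -2.05 ± 0.59 and -4.59 ± 0.65), Pfdn5 (-2.08 ± 0.43, -1.43 ± 0.43 and -2.94 ± 0.45) and Pfdn1 (-1.51 ± 0.38, -1.53 ± 0.38 and -2.23 ± 0.38).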

How the data were processed

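RNA from 12 RIP-seq and Input libraries was prepared with a strand-specific kit for total RNA with unique molecular identifiers. Per the study's methods and submitters' notes, the authors trimmed reads with cutadapt 3.4, aligned them with STAR 2.7.7a to mouse mm10, removed duplicates with UMI-tools 1.1.1 and counted them by strand with featureCounts 2.0.1, where a read with several alignments or overlapping genes counted for each. The deposited values are raw counts per gene. The authors' table for YTHDF1 also lists normalized signal and their own fold changes and p-values, and only its list of genes, with names and biotypes, was used to choose members. The members and gene lists were chosen with earlier results of these data known.

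Genes averaging at least 10 median-ratio normalized counts were fitted together over the 12 libraries with edgeR 4.0.16 (R 4.3.3), TMM scaling and the quasi-likelihood test, without a replicate term, and levels are TMM-normalized CPM. Adjusted p-values are Benjamini-Hochberg values over all genes tested. Length and shared 50-base windows came from the exons of the files' build. Per the study's methods the RIPs and Input of a replicate came from 1 lysate. Deviations of same-numbered libraries from their group means correlated between the YTHDF3 RIP and Input (r = 0.835, 0.539 and 0.812 in replicates 1, 2 and 3). For the YTHDF1 or YTHDF2 RIP and Input, r ran from -0.329 to 0.186. Between the YTHDF1 and YTHDF2 RIPs it was 0.07, 0.553 and 0.361, and between either of them and the YTHDF3 RIP it ran from -0.355 to 0.175. Fits with the number as a block, over 12 libraries or 2 groups, are given beside the counts. Alternatives were DESeq2 1.42.0, library size alone, TMM over protein-coding genes, no filter or a minimum of 50, removal of a loess trend with length (span 0.3), each library left out, and 2 groups alone. The test was checked on simulated data.

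Values are given for a list of well-known members, the 6 highest and 6 lowest called members of each RIP and the 4 highest and lowest of each RIP pair with a mean of at least 100 counts and groups that do not overlap. Other members are named for completeness, after their values were seen. The values of 1 member and of 1 gene of the network list are not reported here, and both are included in the counts.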

Additional observations from a re-analysis of the deposited data

Results flagged for a closer look

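Dnajb9, the J-domain protein ERdj4 of the endoplasmic reticulum, was flagged because its change against the shared Input differed between RIPs in direction as well as size, and the difference itself passed edgeR's test. The YTHDF1 RIP exceeded the YTHDF2 RIP by a log2 fold change of 1.46 ± 0.20 (adjusted p 0.000361) and the YTHDF3 RIP by 1.99 ± 0.20 (adjusted p 9.71e-05). Its 3 YTHDF1 libraries lay above, and its 6 YTHDF2 and YTHDF3 libraries below, all 3 Input libraries. The enrichment of Dnajb9 over Input in the YTHDF1 RIP was lost when any Input library was left out. It was also lost in 2 groups alone (0.46, adjusted p 0.116) and with the replicate block added there (0.46, adjusted p 0.248, edgeR). Of the 16820 genes tested, 235 were called in both directions, against 1 of the 68 members tested, which is a similar share.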

How the results depend on the processing

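Depth ran from 6020072 counts, so members under about 5 CPM rest on few reads, and 3 libraries a group limit every test. The cause of the changes listed here was not tested.

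Scaling by library size alone moved the median of all genes to -0.38 for YTHDF1, 0.09 for YTHDF2 and 0.38 for YTHDF3. It gave 12 enriched and 29 depleted members in the YTHDF1 RIP (18.3% and 36.5% of all genes) and 14 enriched in the YTHDF3 RIP (28.7%). For YTHDF1 against YTHDF2 it gave 0 higher and 9 lower (6.32% and 16.4% of all genes), and against YTHDF3 1 and 12 (4.53% and 20.2%). For YTHDF2 against YTHDF3 3 were lower (4.27%). The member medians were -0.40 for YTHDF1 and -0.0031 for YTHDF3. Without a filter on low counts the YTHDF2 and YTHDF3 RIPs had 3 and 4 enriched members, 1 was lower in YTHDF1 than in YTHDF2, and 0 were higher and 3 lower in YTHDF2 than in YTHDF3. A minimum mean of 50 gave 6 higher and 1 lower for YTHDF1 against YTHDF2 and 3 higher against YTHDF3. TMM over protein-coding genes gave 6 higher for YTHDF1 against YTHDF2, and DESeq2 gave 2 higher for YTHDF2 against YTHDF3. Fits of 2 groups alone gave 5, 3 and 2 higher in the 3 pairs (9.33%, 5.35% and 5.20% of all genes). Removing the length trend gave 4 enriched in the YTHDF3 RIP, 4 lower for YTHDF1 against YTHDF2, 3 higher and 2 lower against YTHDF3, 0 higher for YTHDF2 against YTHDF3 and a YTHDF1 median of -0.21, and these counts were equal with a replicate block added (median -0.21). Counts in this paragraph without a percentage lack the share of all genes called in that setting. They describe the dependence on the setting and do not set the members beside other genes.

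With the replicate number as a block in 2 groups alone, the YTHDF1 RIP had 6 enriched and 11 depleted members (14.5% and 18.4% of all genes), and the YTHDF3 RIP had 18 enriched (36.4%). In that setting 1 was higher and 0 lower in YTHDF1 than in YTHDF3 (1.99% and 0.599% of all genes), and 0 were higher in YTHDF2 than in YTHDF3 (1.74%). Same-numbered libraries of YTHDF1 or YTHDF2 and Input did not deviate together (r from -0.329 to 0.186).

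Leaving out 1 library gave 13 to 21 enriched and 17 to 23 depleted members in the YTHDF1 RIP, 4 to 7 and 11 to 18 in the YTHDF2 RIP, and 2 to 10 and 14 to 22 in the YTHDF3 RIP. It gave 4 to 11 higher and 1 to 5 lower for YTHDF1 against YTHDF2, 3 to 11 and 0 to 2 against YTHDF3, and 0 to 2 and 0 for YTHDF2 against YTHDF3. Member medians ran from -0.16 to 0.11, -0.21 to -0.14 and -0.35 to -0.27. The shares of all genes called without each library are not given here, so these ranges do not set the members beside other genes.

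The named members whose signs turned were members without a call. In the YTHDF1 RIP, library size alone gave Hspa8 -0.17, Hspa4l -0.0047, Dnaja1 -0.27, Cct2 -0.33, Cct3 -0.0665, Cct7 -0.30 and Cct8 -0.0655. The length removal gave Hspa4l -0.63 (-0.62 with the block), Dnaja1 -0.55 (-0.57), Cct3 -0.0762 (-0.0929) and Cct7 -0.37 (-0.41). The 2-group block gave Dnaja1 -0.0132, Cct2 -0.0604 and Cct7 -0.0331, TMM over protein-coding genes gave Cct2 -0.0387 and Cct7 -0.0212, the minimum of 50 gave Cct2 -0.0239 and Cct7 -0.0049, and 2 groups alone gave Cct2 -0.015. In the YTHDF2 RIP, library size alone gave Hspa12a 0.0137 and Hsp90ab1 0.0383, the length removal gave Hsp90ab1 0.0731 (0.0669) and Dnajc3 -0.0868 (-0.0836), and no filter gave Dnajc3 -0.0153 and Cct8 -0.0046. In the YTHDF3 RIP, library size alone gave Hspd1 0.11, Dnajb1 0.0673, Dnajc3 0.0615, Dnajc5 0.17 and Cct8 0.10, and the length removal gave Hspa4l -0.26 (-0.25), Hspd1 0.13 (0.12) and Cct8 0.0165 (0.0101). Without 1 library, values in the YTHDF1 RIP ran from -0.0931 to 0.63 for Hspa4l, -0.25 to 0.41 for Dnaja1, -0.31 to 0.31 for Cct2, -0.0353 to 0.48 for Cct3, -0.27 to 0.30 for Cct7 and -0.035 to 0.59 for Cct8. Those in the YTHDF2 RIP ran from -0.42 to 0.0259 for Hspa4l, -0.17 to 0.025 for Hspa12a, -0.0845 to 0.32 for Hsp90aa1, -0.18 to 0.0866 for Hsp90ab1, -0.17 to 0.008 for Dnajb11, -0.20 to 0.0544 for Cct3 and -0.0766 to 0.20 for Cct8.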
